A study of Mus musculus with 12 samples.

Results

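The genes of the synaptonemal complex and the meiotic chromosome axis were followed in the testes of mice that had been injected with lentivirus. They are 10 of the 20718 genes measured, found by their symbols: Sycp1, Sycp2, Sycp3, Syce1, Syce2, Syce3, Tex12, Hormad1, Hormad2 and Rec8. RNA was sequenced from 12 testis libraries in 4 groups of 3. The mice (strain "IRC mouse" in the labels, ICR in the methods of the study) were injected in the testis at 4 weeks of age, raised for 5 weeks and mated at 9 weeks for 4 days, and testes were taken after a further 4 days. In F0_5251KD the virus carried 3 short hairpin RNAs against the long non-coding RNA lncRNA5251 in the LV3 vector, and in F0_3NC it carried the negative control of LV3. In F0_5251OV the virus carried lncRNA5251 in the LV5 vector, and in F0_5NC it was the empty LV5 vector. All 4 groups thus received virus, and no group without injection was analysed. Whole testis was sequenced, whichever of its cells the virus had entered. Whether each library is a separate animal is not stated in the labels, so p-values measure only the spread between libraries.

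The synaptonemal complex is the protein zipper that holds homologous chromosomes together in the prophase of meiosis. Each chromosome is first folded into loops on an axis, built from cohesin that holds REC8 and from the filament proteins SYCP2 and SYCP3, and HORMAD1 and HORMAD2 lie on axes that are not yet paired. The axes of the homologues are then joined by SYCP1, the transverse filament, and by the central element, whose proteins include SYCE1, SYCE2, SYCE3 and TEX12. The complex is made in spermatocytes, and male mice that lack its parts arrest in meiosis and are infertile. In RNA of whole testis, fewer spermatocytes and less RNA per spermatocyte cannot be told apart.

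Totals were nearly equal, at 15431383 to 16355720 estimated counts per library. The testis label was borne out by marker genes: the 10 markers of pachytene spermatocytes summed to 5413 to 6010 RPKM (reads scaled by the length of the transcript and by the mapped reads of the library) per library, and the 7 of elongated spermatids to 35036 to 44018. Of the libraries, 2 stood apart in base composition: F0_3NC replicate 2 and F0_5251OV replicate 1. Over 9617 genes of at least 10 CPM (counts divided by library total), log2 CPM fell with the GC content of the transcript by 0.32 per 10% GC in F0_3NC replicate 2 and by 0.25 in F0_5251OV replicate 1, relative to the mean of all libraries. In the other 10 libraries the slope lay between 0.005 and 0.10. These libraries belong to different groups, and fold changes of the 10 genes that rest on them are given with and without them.

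This bears on the axis and synaptonemal complex because several of its transcripts are poor in G and C. GC content was taken from the longest GENCODE transcript of each gene, which may differ from the transcripts measured. Transcript GC content was 34.3% for Tex12, 34.3% for Sycp3, 34.6% for Sycp1, 35.8% for Hormad1 and 36.4% for Sycp2, and each of these lay below more than 99% of the genes compared (between 0.114% and 0.728% of them had lower values). Hormad2 had 43.9%, Syce2 49.3%, Syce1 49.5%, Syce3 52.9% and Rec8 56.7%, against a median of 49.0% over the genes. The difference can be read in the coding sequences. Shown are the middle 90 bases of the longest coding exon of the 4 genes whose values the libraries in question changed most, 5′ to 3′ on the coding strand, with G and C in capitals (mm10, the GRCm38 assembly). Sycp1 is on chromosome 3 (102915203 to 102915292, minus strand, exon 13 of 32 coding exons), Sycp2 on chromosome 2 (178374519 to 178374608, minus strand, exon 22 of 43), Hormad1 on chromosome 3 (95578132 to 95578221, plus strand, exon 9 of 14) and Rec8 on chromosome 14 (55624114 to 55624203, plus strand, exon 14 of 19).
Sycp1: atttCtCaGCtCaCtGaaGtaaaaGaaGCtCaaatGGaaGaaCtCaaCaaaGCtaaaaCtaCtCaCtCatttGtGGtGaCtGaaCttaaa
Sycp2: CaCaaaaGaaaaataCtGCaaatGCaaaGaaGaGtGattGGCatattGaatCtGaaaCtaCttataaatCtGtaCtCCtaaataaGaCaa
Hormad1: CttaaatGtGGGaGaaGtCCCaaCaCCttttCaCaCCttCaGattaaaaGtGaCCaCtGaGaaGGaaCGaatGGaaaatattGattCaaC
Rec8: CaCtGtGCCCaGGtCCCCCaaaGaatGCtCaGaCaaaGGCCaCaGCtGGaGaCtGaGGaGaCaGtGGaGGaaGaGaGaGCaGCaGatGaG
G and C make up 35.6% of the Sycp1 stretch, 30.0% of Sycp2, 38.9% of Hormad1 and 56.7% of Rec8.

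All 10 genes were expressed in every library and passed the filter on low counts. Mean RPKM over the 12 libraries ran from 8.72 for Hormad2 to 229.5 for Syce1. By the deposited RPKM, Syce1, Sycp3 (193.9), Syce2 (185.7) and Syce3 (154.0) were highest. Hormad1 (80.3), Sycp2 (79.0), Sycp1 (54.1), Rec8 (34.7), Tex12 (18.5) and Hormad2 followed. Of the 4 central element genes, 3 stood near the top of this order and Tex12 near the bottom. The order rests on the transcript lengths behind the deposited values, which are not stated. It was also not corrected for GC content, in which the genes differ, so it is only a rough guide to abundance between genes. Neighbours such as Hormad1 and Sycp2 did not differ beyond their spread between libraries. Counts per library were 111 to 172 for Tex12 and 186 to 270 for Hormad2, and at least 634 for every other gene.

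**Figure D1:**
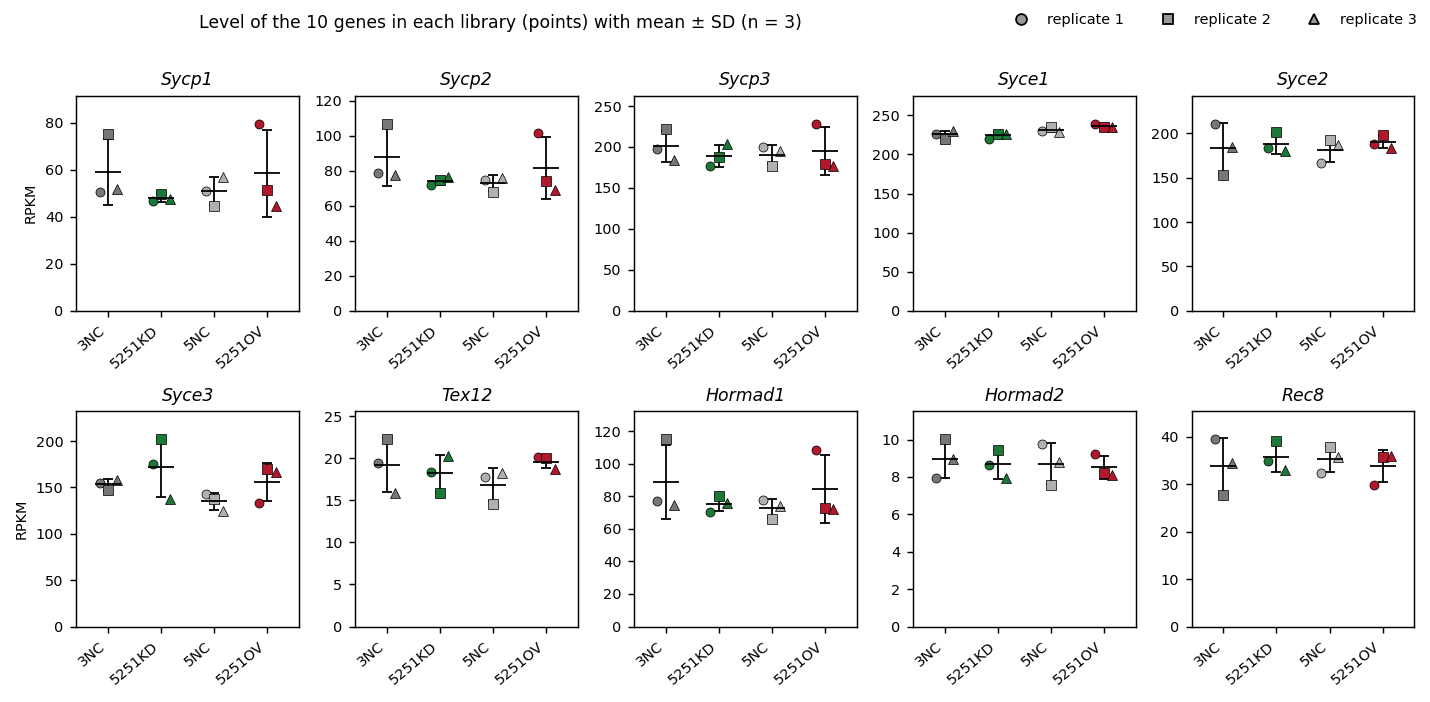
RPKM of the 10 genes in each library (points, shape by replicate) in the 4 groups, with the group mean and SD (n = 3) as bars, each panel starting at 0. Sycp1, Sycp2, Sycp3 and Hormad1 have their highest points in F0_3NC replicate 2 and F0_5251OV replicate 1, while Syce1 is nearly level in all 12 libraries.

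With replicates 1, 2 and 3 in that order in each group, Sycp2, whose protein binds SYCP3 and links it to the chromosome, stood at 78.9, 107 and 77.4 RPKM in F0_3NC, 71.6, 74.6 and 76.1 RPKM in F0_5251KD, 102, 74 and 69 RPKM in F0_5251OV, and 74.7, 67.7 and 76 RPKM in F0_5NC. The libraries at 106.8 and 101.5 stood apart from the other 10, which lay between 67.7 and 78.9. Sycp3, the main filament protein of the axis, stood at 197, 221 and 184 RPKM in F0_3NC, 177, 187 and 204 RPKM in F0_5251KD, 228, 179 and 177 RPKM in F0_5251OV, and 199.6, 177 and 195 RPKM in F0_5NC. The same libraries were highest, at 221 and 228, but the other 10 reached 203.6 and the groups overlapped.

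Rec8, the cohesin subunit of meiosis that holds sister chromatids together, was at 39.5, 27.6 and 34.4 RPKM in F0_3NC, 34.8, 39.2 and 33.1 RPKM in F0_5251KD, 29.9, 35.8 and 35.9 RPKM in F0_5251OV, and 32.4, 37.9 and 35.7 RPKM in F0_5NC. Here the order was turned round: F0_3NC replicate 2 (27.6) and F0_5251OV replicate 1 (29.9) were the lowest of all. The 4 group means were nearly level, from 33.9 ± 5.93 (SD, n = 3) in F0_3NC to 35.7 ± 3.14 in F0_5251KD.

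Hormad1, which marks axes without a partner and helps to make DNA breaks there, was measured at 76.9, 115 and 74.4 RPKM in F0_3NC, 70.5, 79.9 and 76 RPKM in F0_5251KD, 109, 72.9 and 72.3 RPKM in F0_5251OV, and 77.5, 66.2 and 73.9 RPKM in F0_5NC. As for Sycp2, 2 libraries were above 108 and the other 10 were between 66.2 and 79.9. Its relative Hormad2, which takes part in the surveillance of axes that stay unpaired, was low throughout, at 7.92, 10.01 and 8.98 RPKM in F0_3NC, 8.64, 9.46 and 7.93 RPKM in F0_5251KD, 9.24, 8.22 and 8.11 RPKM in F0_5251OV, and 9.75, 7.57 and 8.78 RPKM in F0_5NC. Its range over all 12 libraries was 1.32-fold and the groups overlapped.

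Sycp1, whose long coiled-coil dimers span the gap between the axes, stood at 50.5, 75.4 and 51.8 RPKM in F0_3NC, 46.6, 49.8 and 47.6 RPKM in F0_5251KD, 79.7, 51.4 and 44.5 RPKM in F0_5251OV, and 50.9, 44.8 and 56.8 RPKM in F0_5NC. It varied most of the 10 genes, by 1.79-fold between its lowest and highest library. The high values were again 75.4 in F0_3NC replicate 2 and 79.7 in F0_5251OV replicate 1, and no other library passed 56.8.

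In the central element, Syce1, a partner of SYCP1 at the start of synapsis, stood at 226, 220.4 and 230.2 RPKM in F0_3NC, 220.2, 227 and 227 RPKM in F0_5251KD, 239, 235 and 235 RPKM in F0_5251OV, and 230.1, 235 and 229 RPKM in F0_5NC. Its 12 values spanned only 1.09-fold. Syce3, a small protein needed for synapsis to start, was at 155, 147 and 158 RPKM in F0_3NC, 175, 202 and 138 RPKM in F0_5251KD, 133, 169.5 and 167 RPKM in F0_5251OV, and 143, 137 and 124 RPKM in F0_5NC. The 3 F0_5NC libraries were among the 5 lowest of the 12, and the F0_5251KD values were widely spread, from 138 to 202.

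Syce2 and Tex12 encode the partner proteins that assemble into the fibres of the central element and let synapsis spread. Syce2 was found at 211, 153 and 185 RPKM in F0_3NC, 184, 201 and 180.0 RPKM in F0_5251KD, 188, 198 and 184 RPKM in F0_5251OV, and 166, 192 and 187 RPKM in F0_5NC. Its lowest and highest values, 153 and 211, both fell in F0_3NC. Tex12 was measured at 19.5, 22.2 and 15.8 RPKM in F0_3NC, 18.4, 15.9 and 20.2 RPKM in F0_5251KD, 20.1, 20.0 and 18.7 RPKM in F0_5251OV, and 17.8, 14.6 and 18.2 RPKM in F0_5NC. All 3 F0_5251OV libraries lay above the 3 F0_5NC libraries, and the F0_3NC and F0_5251KD values overlapped both.

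The order of the group means differed from gene to gene. F0_3NC was the highest group for Sycp1, Sycp2, Sycp3, Hormad1 and Hormad2, and F0_5NC was the lowest for Sycp2, Syce2, Syce3, Tex12 and Hormad1. For each gene with F0_3NC highest, replicate 2, which stood apart, held the top value of that group. The order of the group means was not taken without it. For 9 genes every step between neighbouring groups in that order was smaller than the pooled SD within groups. The exception was Syce1, where the step from F0_3NC (226 ± 4.92) to F0_5NC (231 ± 3.17) was 5.85 RPKM against a pooled SD of 3.70, and the step from there to F0_5251OV (236.5 ± 2.48) was also larger than that SD. In the test for any difference among the 4 groups none of the 10 genes passed (edgeR quasi-likelihood F test, adjusted over all 16297 genes tested, threshold 0.05), where 0.454% of all genes passed. Without adjustment none was below 0.05 either, against 7.63% of all genes, and the smallest adjusted p was that of Sycp2 (adjusted p = 0.747).

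Knockdown of lncRNA5251 was compared with the negative control of the same vector. None of the 10 genes passed the test in F0_5251KD vs F0_3NC, where 0.0245% of all genes did (4 genes), and none had an unadjusted p under 0.05, against 4.74% of all genes. The log2 fold change was below 0 for 7 genes and above 0 for 3, with a median of -0.07 against -0.0045 over all genes. Sycp1 had the lowest estimate, -0.30 ± 0.18 (SE, adjusted p = 0.897), with a 95% interval of 0.621 to 1.07 for the fold. Sycp2 had -0.26 ± 0.13 (adjusted p = 0.897), and Hormad1 -0.24 ± 0.16 (adjusted p = 0.897). Sycp2 was the only gene of the 10 whose groups did not overlap, a state found for 11.8% of all genes. The other estimates ran from -0.09 for Sycp3 to 0.18 ± 0.15 for Syce3. The interval was narrowest for Syce1, with a fold of 0.895 to 1.09.

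These lower values moved with F0_3NC replicate 2. Without the 2 libraries that stood apart, Sycp1 had -0.09 ± 0.09, Sycp2 -0.09 ± 0.06 and Hormad1 -0.02 ± 0.07, and the median of the 10 genes was -0.03. With a GC term for each library (a loess offset on transcript GC content, all 12 libraries kept) the values were -0.11 ± 0.09, -0.09 ± 0.05 and -0.06 ± 0.07. None of the 10 genes passed the test in either fit.

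Overexpression was compared with the empty LV5 vector. In F0_5251OV vs F0_5NC none of the 10 genes passed, and neither did any other gene (0%). None had an unadjusted p under 0.05, against 8.77% of all genes. DESeq2 called 30 genes here, and none of the 10. The log2 fold change was above 0 for 9 of the 10 genes, with a median of 0.15 against -0.002 over all genes. Hormad1 had the highest estimate, 0.26 ± 0.16 (SE, adjusted p = 0.630), then Tex12 with 0.25 ± 0.14 (adjusted p = 0.601), Syce3 with 0.25 ± 0.15 (adjusted p = 0.624) and Sycp1 with 0.23 ± 0.18 (adjusted p = 0.706). Rec8 was the exception, at -0.03 ± 0.14. In scaled counts the groups did not overlap for Tex12 and Hormad1, against 13.9% of all genes, although the RPKM values of Hormad1 overlapped (72.3 to 108.6 in F0_5251OV and 66.2 to 77.5 in F0_5NC).

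The same comparison without the 2 libraries that stood apart gave Sycp1 -0.05 ± 0.09, Sycp2 0.02 ± 0.06 and Hormad1 0.05 ± 0.07, and a median of 0.05. Tex12 had 0.25 ± 0.15, as with all libraries, and Syce3 was higher, at 0.38 ± 0.14 in place of 0.25 ± 0.15. Syce3 then had an unadjusted p under 0.05, as 8.32% of all genes did, and an adjusted p of 0.586. With the GC term Syce3 had 0.29 ± 0.13 (unadjusted p again under 0.05, adjusted p = 0.501) and Tex12 0.12 ± 0.14.

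**Figure D2:**
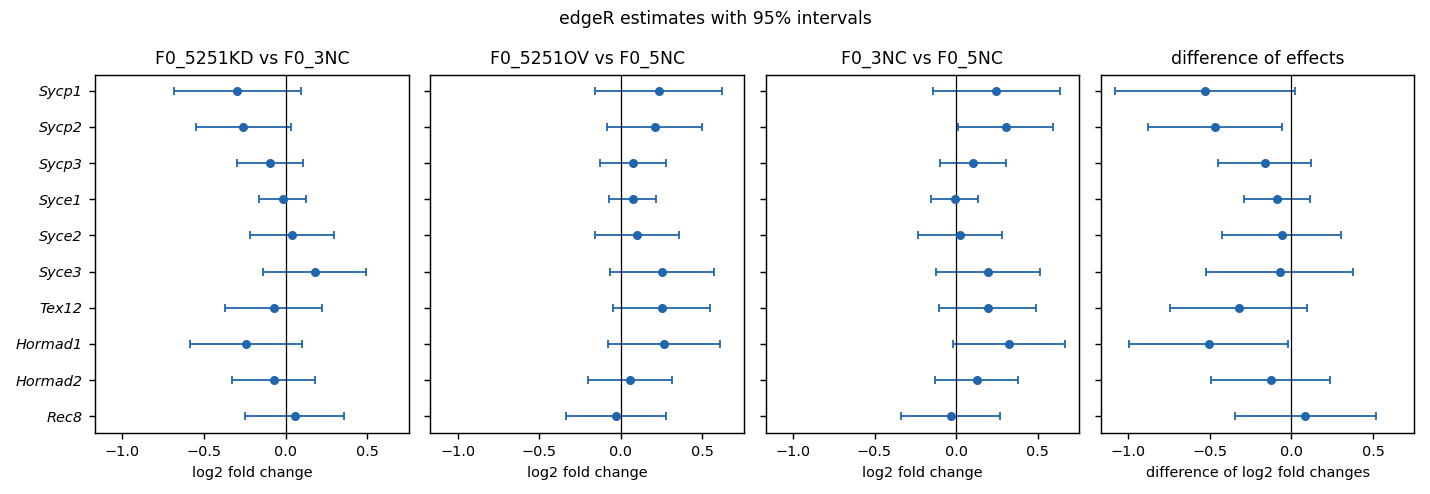
Log2 fold change of each gene with its 95% interval (edgeR, all 12 libraries) in the 3 comparisons, and the difference of the knockdown and overexpression effects in the panel at the right. Intervals lie on 1 side of 0 for Sycp2 in F0_3NC vs F0_5NC and for Sycp2 and Hormad1 in the difference, and none of these passed after adjustment.

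The control viruses were compared with each other to see how far groups without knockdown or overexpression differ. In F0_3NC vs F0_5NC none of the 10 genes passed, against 0.331% of all genes (54 genes). Estimates were above 0 for 8 of the 10, with a median of 0.16 against 0.0005 over all genes. Sycp2 alone had an unadjusted p under 0.05, as 11.9% of all genes did, with a log2 fold change of 0.30 ± 0.13 (adjusted p = 0.407). Hormad1 was at 0.32 ± 0.16 (adjusted p = 0.439). For both genes the scaled counts of the groups did not overlap, as for 17% of all genes. The RPKM values of Hormad1 did overlap (74.43 to 114.87 in F0_3NC and 66.25 to 77.46 in F0_5NC). Without the libraries that stood apart Sycp2 had 0.14 ± 0.06 (unadjusted p above 0.05, adjusted p = 0.567) and Hormad1 0.09 ± 0.07, and with the GC term 0.09 ± 0.05 and 0.10 ± 0.07. The median of 0.16 between the control groups stands beside 0.15 for overexpression and -0.07 for knockdown, and each of those comparisons shares a control group with this one. Without the libraries that stood apart these medians were 0.09, 0.05 and -0.03, and with the GC term 0.02, 0.07 and -0.0002. Leaving out F0_3NC replicate 2 alone gave 0.105 between the control groups.

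The knockdown effect minus the overexpression effect was tested last. No gene of the 10 passed, and none of all genes did (0%). Unadjusted p-values under 0.05 were found for 2 of the 10, against 11.3% of all genes. Sycp2 had a difference of -0.47 ± 0.19 on the log2 scale (adjusted p = 0.420) and Hormad1 of -0.51 ± 0.23 (adjusted p = 0.434). Sycp1 had the lowest value, -0.53 ± 0.26 (adjusted p = 0.445). Both libraries that stood apart enter this value with the same sign, since F0_3NC is subtracted in the knockdown effect and F0_5251OV is added in the effect that is taken away. Without them the differences were -0.11 ± 0.09 for Sycp2, -0.07 ± 0.10 for Hormad1 and -0.04 ± 0.13 for Sycp1. With the GC term they were -0.16 ± 0.08, -0.18 ± 0.10 and -0.17 ± 0.12, and no unadjusted p was under 0.05 in either fit (adjusted p of Sycp2 0.553 with the term).

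The spread of the 10 genes between libraries was then described by transcript GC content. In F0_3NC replicate 2, log2 CPM relative to the mean of the 12 libraries was 0.52 for Hormad1, 0.49 for Sycp1, 0.44 for Sycp2 and 0.17 for Sycp3. F0_5251OV replicate 1 had 0.44, 0.56, 0.38 and 0.22 for these genes. The highest value of any other library was 0.02 for Hormad1, 0.09 for Sycp1, 0.03 for Sycp2 and 0.08 for Sycp3, so that both libraries lay above all others for all 4. Rec8, the most GC-rich of the 10, was at -0.35 and -0.23 and below all other libraries, whose lowest value was -0.19. Tex12, as GC-poor as Sycp3 by the longest transcript, did not separate in this way: it was at 0.23 and 0.09, and another library reached 0.15. Its coding sequence held 40.1% GC against 38.2% in Sycp3, and which of its transcripts was measured is not known. Sycp3 rose less than Sycp1 at nearly the same GC content. Syce2, near the median GC content, was at -0.31 in F0_3NC replicate 2. With the GC term Sycp3 was at -0.22 and Syce2 at -0.32 in that library.

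**Figure D3:**
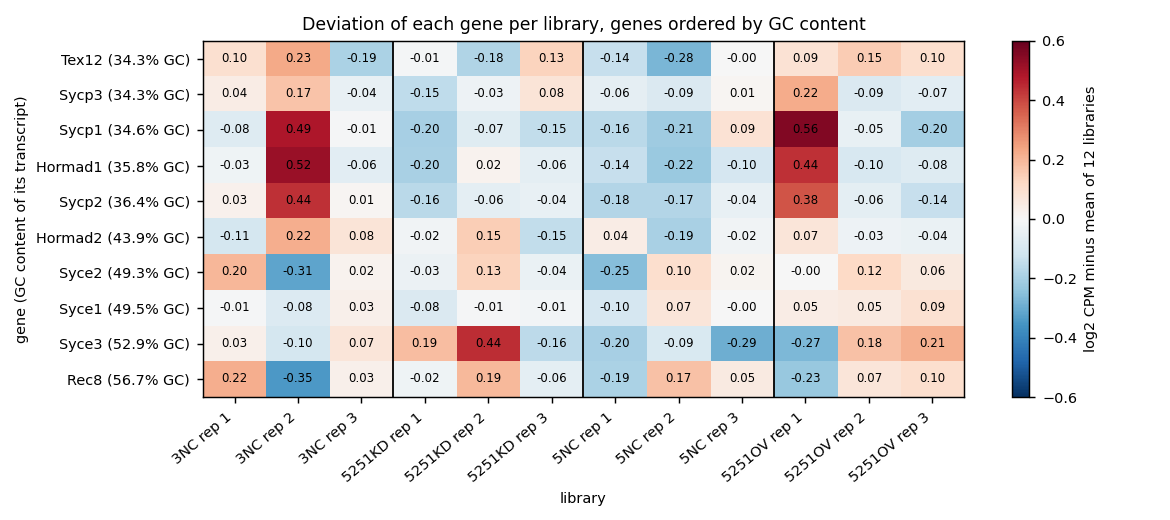
Log2 CPM of each gene minus its mean over the 12 libraries (colour and printed number), with genes from the lowest (top) to the highest transcript GC content and libraries by group. The columns of F0_3NC replicate 2 and F0_5251OV replicate 1 (prefix F0_ left off on the axis) run from red at the top to blue at the bottom.

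The within-group SD of log2 CPM was 0.27 for Sycp1, 0.23 for Hormad1, 0.21 for Syce3, 0.20 for Rec8, 0.19 for Sycp2, 0.17 for Syce2, 0.15 for Tex12, 0.13 for Hormad2, 0.12 for Sycp3 and 0.06 for Syce1. Counting alone would give 0.03 for Sycp1 and Hormad1 and 0.02 for Sycp2 and Syce1, but 0.12 for Tex12 and 0.10 for Hormad2. The spread of these last 2 genes was thus nearer to that of counting, though above it. With the GC term the SD fell to 0.12 for Sycp1, 0.08 for Hormad1, 0.05 for Sycp2 and 0.14 for Rec8. For Sycp3 it was 0.09 and for Hormad2 0.11. The SD with the term was 0.05 for Syce1, 0.17 for Syce2 and 0.18 for Syce3, and 0.17 for Tex12, for which it rose. The variation of Syce2 and Syce3 was thus of nearly the same size with the term as without it.

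**Figure D4:**
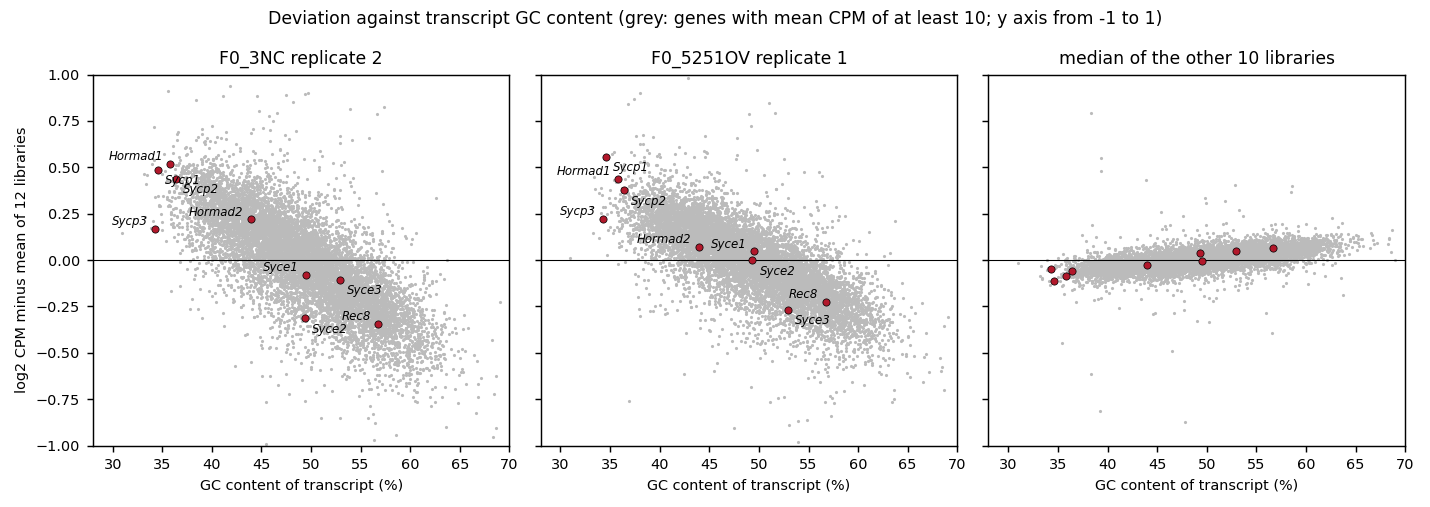
Log2 CPM minus the mean of the 12 libraries against transcript GC content for genes of at least 10 CPM (grey) and for 9 of the 10 genes described (red, named in the first 2 panels; Tex12 was below 10 CPM), in the libraries that stood apart and as the median of the other 10. The grey cloud slopes down in F0_3NC replicate 2 and F0_5251OV replicate 1, with slopes of -0.32 and -0.25 per 10% GC. In both, Sycp1, Sycp2, Hormad1 and Sycp3 lie above 0 at the left end and Rec8 below 0 near the right. Syce2, near the middle, lies at -0.31 in F0_3NC replicate 2.

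Across the 12 libraries some of the genes moved together, given here as a description since the libraries share groups and base composition. Pearson's r of log2 CPM was 0.97 for Sycp2 and Hormad1, 0.96 for Sycp1 and Sycp2, 0.94 for Sycp1 and Hormad1 and 0.89 for Sycp2 and Sycp3. Rec8 went with Syce2 (r = 0.89) and against Hormad1 (r = -0.67) and Sycp1 (r = -0.67). Both libraries that stood apart enter all these values, with Sycp1, Sycp2, Sycp3 and Hormad1 highest and Rec8 lowest in them. The correlations were not computed without these libraries, so they do not show that the genes move together or apart in the others. The genes outside the 10 whose log2 CPM was most like their mean standardised profile, among 9697 genes, were Lmbr1 (r = 0.96), Metap2 (0.96), Adam24 (0.95), Mtrex (0.95) and 4921501E09Rik (0.95), over 12 libraries. Transcripts of these 5 held 41.2% to 44.0% GC. The profile itself was highest in F0_5251OV replicate 1 and F0_3NC replicate 2.

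Genes that work with the complex were described from lists. Of 15 genes of meiotic cohesin and its regulators, none passed in any comparison: in F0_5251KD vs F0_3NC all 15 had lower estimates (median -0.15), with the smallest p for Sgo2a, a protector of centromeric cohesin (-0.27 ± 0.12, adjusted p = 0.897). Higher estimates were found for 13 of 15 in F0_5251OV vs F0_5NC (median 0.12, smallest p for the cohesin regulator Pds5b, 0.18 ± 0.10) and for 15 of 15 in F0_3NC vs F0_5NC (median 0.16, smallest p for the cohesin subunit gene Stag2, 0.38 ± 0.13, adjusted p = 0.332). Among 12 tested axis partners and synapsis genes, 10 were lower in F0_5251KD (median -0.15, smallest p for Syce1l, a paralogue of Syce1, at 0.27 ± 0.13) and 8 were higher in F0_5251OV (median 0.07, smallest p for Fbxo47, 0.28 ± 0.12, adjusted p = 0.552). Again none passed. Both lists moved with the libraries that stood apart: without these libraries the cohesin medians were -0.04, 0.03 and 0.07 in the 3 comparisons, with 12 of 15 genes lower in F0_5251KD and 9 of 15 higher in F0_5251OV, and the medians of axis partners were -0.06 in F0_5251KD and 0.01 in F0_5251OV.

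The 9 genes that fasten telomeres to the nuclear envelope had medians of -0.03 in F0_5251KD and 0.03 in F0_5251OV. The smallest p was that of Terb1 in the former (-0.30 ± 0.13, adjusted p = 0.897) and of Sun2, a protein of the nuclear envelope, in the latter (-0.37 ± 0.11, adjusted p = 0.526). For 16 genes of recombination intermediates the medians were -0.06 and 0.08, with the smallest p for AI481877, the crossover gene Shoc1 (-0.38 ± 0.13, adjusted p = 0.897), and for Mlh3, a mismatch repair protein of crossovers (0.25 ± 0.10, adjusted p = 0.552). None of these lists held a gene that passed in any comparison.

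The cells around the spermatocytes were read from marker lists. Markers of early prophase had a median of -0.21 in F0_5251KD vs F0_3NC, with 7 of 9 lower (smallest p for Zcwpw1, a reader of histone marks at meiotic breaks, -0.19 ± 0.09), and of 0.03 in F0_5251OV vs F0_5NC (Spo11, which makes the breaks, -0.32 ± 0.13). Pachytene markers had -0.01 and 0.06 (Mybl1, -0.25 ± 0.14, and Pgk2, 0.21 ± 0.10), and those of spermatogonia -0.02 and 0.00 (Kit, 0.55 ± 0.20, and Id4, 0.21 ± 0.09). The medians of round spermatid markers were -0.02 and 0.09 (Izumo1, -0.19 ± 0.10, and Catsper3, 0.24 ± 0.10), and those of elongated spermatid markers 0.04 and 0.04 (Akap4, -0.12 ± 0.10 and 0.14 ± 0.10). None of these genes passed the test. Without the libraries that stood apart the early prophase medians were -0.07 and -0.04, and the pachytene medians -0.02 and 0.05. Round spermatid markers then had -0.05 (7 of 8 lower) and 0.15 (8 of 8 higher). Elongated spermatid markers had -0.06 (7 of 7 lower) and 0.09 (7 of 7 higher), so that their 2 medians no longer had the same sign. With the GC term the medians were -0.03 and 0.13 for round and -0.01 and 0.07 for elongated spermatid markers.

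Markers of somatic cells of the testis were described in the same way. In F0_5251OV vs F0_5NC, where 9 of the 10 synaptonemal complex and axis genes had higher estimates, all 9 Sertoli cell markers were lower (median -0.21, Sox9 -0.57 ± 0.15, adjusted p = 0.511), as were all 6 of Leydig cells (-0.29, Insl3 -0.56 ± 0.26), all 5 of smooth muscle and peritubular cells (-0.48, Myh11 -0.48 ± 0.10, adjusted p = 0.398) and all 5 of endothelium (-0.10, Cdh5 -0.55 ± 0.18). Of the 6 macrophage markers 5 were lower (-0.49, Csf1r -0.48 ± 0.19). In F0_5251KD vs F0_3NC the medians were above 0, at 0.11 for Sertoli cells (Amhr2, 0.26 ± 0.15), 0.23 for Leydig cells (Hsd3b1, 0.33 ± 0.20), 0.16 for macrophages (Lyz2, 0.54 ± 0.28), 0.12 for smooth muscle (Acta2, 0.22 ± 0.13) and 0.26 for endothelium (Tek, 0.42 ± 0.17). The other comparison with F0_5NC had lower somatic markers too: in F0_3NC vs F0_5NC, where 8 of the 10 genes had higher estimates, all 9 Sertoli cell markers (median -0.19, Gata4 -0.44 ± 0.14, adjusted p = 0.293) and all 5 of endothelium (-0.12, Kdr -0.51 ± 0.22) were lower. There 4 of 6 macrophage markers were lower (-0.33, Lyz2 -0.60 ± 0.28), 3 of 5 of smooth muscle (-0.20, Des -0.65 ± 0.18) and 3 of 6 of Leydig cells (0.05, Star 0.67 ± 0.20). Both comparisons share the F0_5NC libraries. No gene of these lists passed. In the overexpression comparison the summed marker levels lay apart for Sertoli cells (172 to 199 RPKM in F0_5251OV and 201 to 301 in F0_5NC) and for smooth muscle (23.5 to 28.9 and 32.6 to 41.5). Of single genes, 13.9% did not overlap in this comparison, and the share for summed lists was not computed. The sums overlapped for Leydig cells (1697 to 2468 and 2111 to 4362), macrophages (29.9 to 37.8 and 37.4 to 68.5) and endothelium (5.53 to 6.09 and 6.04 to 8.19). Without the libraries that stood apart the medians in F0_5251OV vs F0_5NC were -0.14 for Sertoli cells, -0.44 for Leydig cells, -0.49 for macrophages, -0.47 for smooth muscle and -0.23 for endothelium. In F0_3NC vs F0_5NC they were -0.24, -0.11, -0.44, -0.12 and -0.10 in the same order. In F0_5251KD vs F0_3NC they were 0.02 (5 of 9 Sertoli cell markers higher), 0.31, 0.34, 0.09 and 0.25. The part of cell make-up in the values of the 10 genes was not tested.

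**Figure D5:**
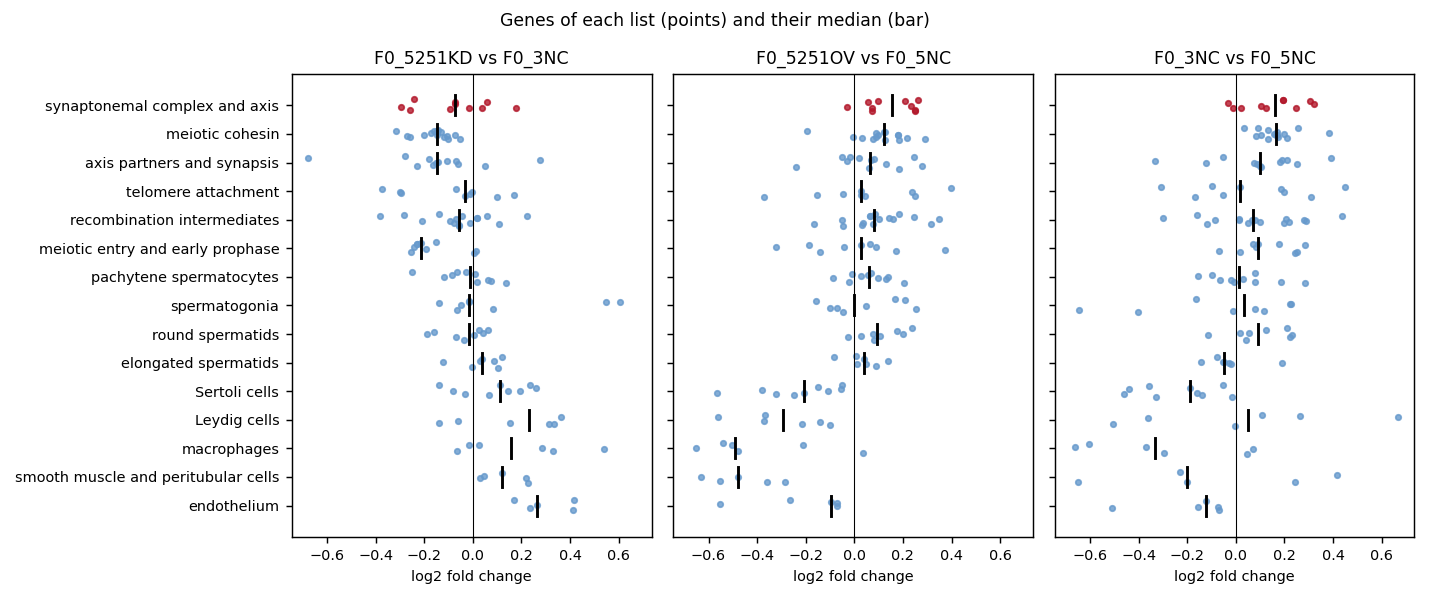
Log2 fold change of the genes of each list (points) and their median (bar) in 3 comparisons, with the synaptonemal complex and axis genes in red and genes of partner lists and cell markers in blue. Red points lie mostly left of 0 in F0_5251KD vs F0_3NC and right of it in the other panels, and the somatic lists at the bottom lie left of 0 in F0_5251OV vs F0_5NC except for 1 macrophage gene.

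Of 6 listed markers of the epididymis, the duct beside the testis, 3 were found by symbol among the genes measured. Their summed RPKM was 15 to 102 in F0_5NC, 3.53 to 67.2 in F0_5251OV, 1.08 to 6.94 in F0_3NC and 0.75 to 1 in F0_5251KD. Spink8 passed in F0_3NC vs F0_5NC (-3.79 ± 0.65, adjusted p = 0.0235), and no other marker gene passed in any comparison. Without the libraries that stood apart Spink8 did not pass. With the GC term 1 of the 3 markers passed in F0_3NC vs F0_5NC. The part of epididymal RNA in the values of the 10 genes was not tested.

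The promoters of the 10 genes were searched for letters of known germline factors, in the 250 bases before each RefSeq start (GRCm38.p6), on both strands. The E2F motif (GCGGGAA), which E2F6 of a repressive complex at germline genes can bind, was in 3 of the 10 promoters, those of Sycp3, Tex12 and Hormad1, and in 3.83% of 27018 promoters. The E-box (CACGTG), bound by MAX and MGA of that complex, was in 4, those of the same genes and Sycp1, against 6.05%. The motif of STRA8 and MEIOSIN, which switch on meiotic genes, was searched as CNCCTCAG and was in the Hormad2 promoter alone, against 6.38%. This match lies in the part that overlaps the annotated Hormad2 gene. Median promoter GC content was 56.6% against 52.0% over all promoters, with a median of 11.5 CpG against 6. The promoters of Sycp3 (chromosome 10, 88459337 to 88459586, plus strand) and Hormad1 (chromosome 3, 95559427 to 95559676, plus strand) are printed since they hold most matches, with the matches in capitals.
Sycp3: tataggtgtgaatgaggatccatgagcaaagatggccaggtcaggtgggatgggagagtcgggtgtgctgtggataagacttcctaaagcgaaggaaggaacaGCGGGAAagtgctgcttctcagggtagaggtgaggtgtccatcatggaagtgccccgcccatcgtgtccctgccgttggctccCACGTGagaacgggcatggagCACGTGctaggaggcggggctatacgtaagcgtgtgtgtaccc
Hormad1: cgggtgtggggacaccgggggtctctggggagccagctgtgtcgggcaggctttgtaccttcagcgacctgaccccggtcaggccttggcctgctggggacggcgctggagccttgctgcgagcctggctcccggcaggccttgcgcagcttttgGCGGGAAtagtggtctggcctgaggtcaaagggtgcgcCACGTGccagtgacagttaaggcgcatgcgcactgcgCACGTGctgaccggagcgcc
In Sycp3 the E2F letters lie at -147 to -141 and the E-boxes at -64 to -59 and -43 to -38 from the start, and in Hormad1 at -95 to -89, -57 to -52 and -20 to -15. Both genes have GC-poor transcripts, at 34.3% and 35.8%, behind promoters of 57.2% and 68.0% GC.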

How the data were processed

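Testis mRNA of 4 groups of 3 libraries was enriched with oligo(dT) beads, copied with random hexamers and sequenced on an Illumina instrument, and reads were aligned with SOAPaligner 2.20 (build mm10). The methods name no strand-marking step. The authors deposited estimated counts and RPKM values per gene. Of the counts, 12.0% were not whole (tolerance 1e-06), but all 120 values of the 10 genes were. Counts were rounded and tested with edgeR 4.0.16 in R 4.3.3 (two-sided quasi-likelihood F test after filterByExpr, with TMM factors, 8 residual degrees of freedom, Benjamini-Hochberg adjustment over 16297 genes, threshold 0.05), after a test on simulated data. The study's methods name DEGseq, which takes no account of spread between libraries. Transcript GC content was that of the longest GENCODE transcript of each gene symbol. The members and lists were chosen with earlier results of these data known. Named are all 10 members, the list genes that passed or else had the smallest p per comparison described, and the 5 most alike genes. Other settings tried were upper-quartile scaling, DESeq2 1.42.0, at least 1 CPM in 3 libraries or no filter, limma 3.58.1 on log2(RPKM + 1) and log2(RPKM + 0.1), only the groups compared, a replicate block and each library left out. Leaving out both libraries that stood apart and the GC term were chosen after seeing the data. Not used were 18 per-sample columns without a matching label and 14 averages by the authors. lncRNA5251 itself was not analysed here.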

Additional observations from a re-analysis of the deposited data

How the results depend on the processing

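None of the 10 genes was called in any comparison under any of the 22 alternatives, the 12 single libraries left out among them, wherever an alternative gave a value. The median log2 fold change of the 10 genes was less stable. Leaving out each library gave -0.105 to -0.04 in F0_5251KD vs F0_3NC, 0.067 (without F0_5251OV replicate 1) to 0.172 in F0_5251OV vs F0_5NC, 0.105 to 0.184 in F0_3NC vs F0_5NC, and -0.227 (without F0_5251KD replicate 2) to -0.123 for the difference of effects. Without F0_3NC replicate 2 and F0_5251OV replicate 1 together the medians were 0.054 in F0_5251OV vs F0_5NC and 0.087 in F0_3NC vs F0_5NC. With the GC term they were 0 in F0_5251KD vs F0_3NC, 0.069 in F0_5251OV vs F0_5NC and 0.02 in F0_3NC vs F0_5NC.

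Single estimates changed sign in 55 cases and kept their sign and side of the threshold in 815. Among those that turned were Sycp1 in F0_5251OV vs F0_5NC (0.232 with all libraries) and Sycp3 in the difference (-0.165). Under limma Hormad2 was at -0.022 (pseudocount 1) and -0.024 (0.1) in F0_5251OV vs F0_5NC. Without both libraries the signs turned in F0_5251KD vs F0_3NC for Syce2 (-0.08), Tex12 (0.036), Hormad2 (0.021) and Rec8 (-0.074), in F0_5251OV vs F0_5NC for Sycp1 (-0.046), Sycp3 (-0.047) and Rec8 (0.056), in F0_3NC vs F0_5NC for Syce1 (0.005) and Rec8 (0.095), and in the difference for Sycp3 (0.025), Hormad2 (0.018) and Rec8 (-0.131). The GC term turned Sycp3 (0.074), Tex12 (0.104), Hormad2 (0.009) and Rec8 (-0.033) in F0_5251KD vs F0_3NC, Sycp3 (-0.075), Hormad2 (-0.014) and Rec8 (0.059) in F0_5251OV vs F0_5NC, Sycp3 (-0.117), Tex12 (-0.034) and Rec8 (0.083) in F0_3NC vs F0_5NC, and Sycp3 (0.149), Hormad2 (0.023) and Rec8 (-0.092) in the difference.

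With each library left out, signs turned within these ranges. In F0_5251KD vs F0_3NC they were -0.046 to 0.008 for Syce1, -0.091 to 0.155 for Syce2, -0.181 to 0.025 for Tex12, -0.158 to 0.01 for Hormad2 and -0.086 to 0.184 for Rec8. In F0_5251OV vs F0_5NC they were -0.033 to 0.377 for Sycp1, -0.034 to 0.127 for Sycp3, -0.001 to 0.172 for Syce2, -0.011 to 0.104 for Hormad2 and -0.127 to 0.068 for Rec8. In F0_3NC vs F0_5NC they were -0.058 to 0.03 for Syce1, -0.091 to 0.155 for Syce2 and -0.158 to 0.112 for Rec8, and for the difference -0.196 to 0.05 for Syce2, -0.235 to 0.061 for Syce3 and -0.063 to 0.206 for Rec8. The cause was not tested.

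Same-numbered libraries were only weakly alike within the 3 comparisons (correlation -0.139 to 0.062 after group means were taken away). With 3 libraries per group this cannot exclude a pairing by replicate number. With the replicate block the medians were -0.074, 0.151, 0.159 and -0.145 in the order above, 0 of the 10 genes were called in each comparison, and over all genes 2 were called in F0_5251KD vs F0_3NC, 0 in F0_5251OV vs F0_5NC, 50 in F0_3NC vs F0_5NC, 0 for the difference and 62 for any difference. Over all genes, DESeq2 called 20, 30, 138, 35 and 211 where edgeR called 4, 0, 54, 0 and 74. Without both libraries the counts were 0, 0, 26, 0 and 35. Leaving out single libraries gave 0 to 7, 0 to 1, 30 to 68, 0 to 1 and 57 to 92. With no filter, or only the groups compared, 3 genes were called in F0_5251OV vs F0_5NC. With limma, 2 (pseudocount 1) and 0 (0.1) were called in F0_5251KD vs F0_3NC, and 1 with pseudocount 1 for the difference. Tex12 and Hormad2 had the fewest counts, at no more than 172 and 270 per library.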
